A study of Homo sapiens and Mus musculus with 18 samples.

Results

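A set of 32 human genes was followed through cells made from WA09, an established human embryonic stem cell line: genes for proteins that the liver secretes, for the factors that specify endoderm and its derivatives, and for the epithelium of the gut. They were chosen by name, because transcripts of this kind had been seen to be higher in one of the cell products than in MesoT at day 18, and they are 32 of the 66733 gene identifiers counted in the human libraries. By role, 10 encode serum carriers and inhibitors, 3 the chains of fibrinogen, 6 lipoprotein proteins, 8 transcription factors and 5 proteins of the gut epithelium. The day 18 comparison that drew attention to them is therefore given as a description, with no test.

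The study made mesothelium, the sheet that lines the body cavities, in a mesenchymal and an epithelial form. Every human group began as splanchnic mesoderm, obtained from WA09 in chemically defined medium during 4 days with WNT3A (25 ng/ml) and BMP4 (100 ng/ml). MesoT, the mesenchymal form, then received WNT3A (25 ng/ml), BMP4 (50 ng/ml) and 4 µM retinoic acid and was taken at day 18 or day 22, with 2 libraries each. MesoT FCS had been carried to passage 4 in 10% fetal serum with FGF2 (8 ng/ml), again with 2 libraries. Mesothelium-like cells, MLC, are the epithelial form and were made by a direct and an indirect route. For the direct route, splanchnic mesoderm was replated at 150000 cells per cm2 with 20 µM SB431542, an inhibitor of the activin and TGF-beta receptors, and 4 µM retinoic acid, without FGF2 or activin A, for 18 days in total (2 libraries, called MLC here). For the other route, MesoT cells were replated at the same density in that medium (2 libraries, MesoT-derived MLC), for a time that the labels do not give. One further library came from splanchnic mesoderm left in culture and is labelled smooth muscle. All groups descend from a single line, and nothing in the labels says that replicates were separate cultures, so p-values measure only the spread between these libraries.

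In the embryo, hepatocytes and the visceral endoderm of the yolk sac secrete an overlapping set of serum proteins, with alpha-fetoprotein as the fetal counterpart of albumin. The intestinal absorptive cell shares the lipoprotein genes with them, since APOB, loaded with lipid by the transfer protein MTTP, is the scaffold of the particles that both liver and gut export. In these tissues the transcription factors HNF4A, HNF1 and FOXA bind many of the same promoters, and CDX1 and CDX2 add intestinal identity. Hepatocytes, gut epithelium and yolk sac endoderm are endodermal, whereas mesothelium is a derivative of mesoderm.

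The stretch before the start site is printed for 6 of the members whose promoters hold the 6 letters GTTAAT (or ATTAAC, the reverse complement). These letters are a part of the palindrome that HNF1 factors recognise. Sequences are from RefSeq, build GRCh38.p14, 250 bases that end just before the annotated start, 5′ to 3′ on the strand of the gene, with the 6 letters in capitals. Counts were made on hg19, so these coordinates only locate the sequence.
AFP, chr4:73435971-73436220, plus strand: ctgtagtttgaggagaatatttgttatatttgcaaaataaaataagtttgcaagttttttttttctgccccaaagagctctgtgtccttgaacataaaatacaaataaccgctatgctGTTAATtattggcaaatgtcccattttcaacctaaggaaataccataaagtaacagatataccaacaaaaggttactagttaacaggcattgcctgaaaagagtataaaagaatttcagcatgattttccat
SERPINA1, chr14:94388603-94388852, minus strand: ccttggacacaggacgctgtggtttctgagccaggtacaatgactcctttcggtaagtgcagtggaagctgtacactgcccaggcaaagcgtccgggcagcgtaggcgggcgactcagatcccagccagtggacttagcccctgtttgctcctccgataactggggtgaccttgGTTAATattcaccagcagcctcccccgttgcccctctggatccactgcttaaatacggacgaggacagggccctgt
FGB, chr4:154562730-154562979, plus strand: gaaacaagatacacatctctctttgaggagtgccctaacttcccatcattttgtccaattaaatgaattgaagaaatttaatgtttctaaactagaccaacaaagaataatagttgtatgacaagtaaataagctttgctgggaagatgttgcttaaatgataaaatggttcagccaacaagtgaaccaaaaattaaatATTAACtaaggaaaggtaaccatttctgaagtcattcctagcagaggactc
FGA, chr4:154590743-154590992, minus strand: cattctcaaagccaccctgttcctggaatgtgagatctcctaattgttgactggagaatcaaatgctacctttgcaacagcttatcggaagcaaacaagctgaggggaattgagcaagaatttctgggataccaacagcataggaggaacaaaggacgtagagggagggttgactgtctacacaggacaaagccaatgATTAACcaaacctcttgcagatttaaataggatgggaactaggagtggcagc
HNF4A, chr20:44400989-44401238, plus strand: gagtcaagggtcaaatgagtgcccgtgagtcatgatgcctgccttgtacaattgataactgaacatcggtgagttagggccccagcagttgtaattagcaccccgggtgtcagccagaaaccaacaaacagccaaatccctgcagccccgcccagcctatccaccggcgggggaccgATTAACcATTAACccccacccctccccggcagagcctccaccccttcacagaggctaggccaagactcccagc
FABP1, chr2:88128063-88128312, minus strand: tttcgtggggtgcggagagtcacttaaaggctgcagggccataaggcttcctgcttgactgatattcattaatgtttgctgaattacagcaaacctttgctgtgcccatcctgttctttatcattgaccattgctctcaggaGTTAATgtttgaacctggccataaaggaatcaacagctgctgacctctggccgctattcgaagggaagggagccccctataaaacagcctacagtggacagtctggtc
The match begins 132 bases before the start in AFP, 76 in SERPINA1, 51 in FGB, 52 in FGA and 108 in FABP1, and HNF4A holds a pair of matches, at 73 and 66. RefSeq promoters were matched for 22 of the 32 members, and 9 of their 29 start sites (8 genes, ALB and APOH being the other ones) had GTTAAT on either strand, against 6.231% of 35116 promoters of the same length. CAAAGTCCA, searched for HNF4, was found in AHSG alone (0.325% of all promoters). TGTTTAC, searched for FOXA, was in APOA2 and CDX2 (2.979%), and TTTATNG, searched for CDX, was in FABP1, AFP, MTTP, RBP4, CDX2 and FOXA3 (8.93%). Such matches describe letters in a window and not binding sites.

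The deposited counts come in separate sets, normalised and tested apart. Day 18 MesoT, MesoT FCS, MLC and smooth muscle lie in 7 one-library files with 21148477 to 70679258 counts each, and MLC are the deepest of them. A table of 6 human libraries holds day 18 and day 22 MesoT and MesoT-derived MLC at 24137663 to 31435480 counts. The day 18 samples were counted in both sets: of the 18 members with at least 10 counts there, 14 agreed within 2-fold, and VTN (325 against 1 counts), TF (49 against 159), CDH17 (9 against 30) and VIL1 (585 against 90) did not. Levels below are counts scaled to a library total of 1000000 (CPM), in the order replicate 1, replicate 2, and they compare libraries and not genes, since gene length is not accounted for. In bulk RNA a level cannot tell fewer cells of a type from less RNA per cell. Mesothelial markers were present in both MLC groups, where a list of 10 such genes summed to 1165 and 1088 CPM in MLC and to 1849 and 2906 CPM in MesoT-derived MLC, and 0 of the 10 were at 0 in those libraries. The sum does not mark mesothelium by itself, since the library labelled smooth muscle reached 1189 CPM, nearly all from KRT19 (1146 CPM). WT1, a defining gene, was at 233 and 158 CPM in MLC, at 251 and 335 CPM in MesoT-derived MLC and at 1 count in that library.

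**Figure D1:**
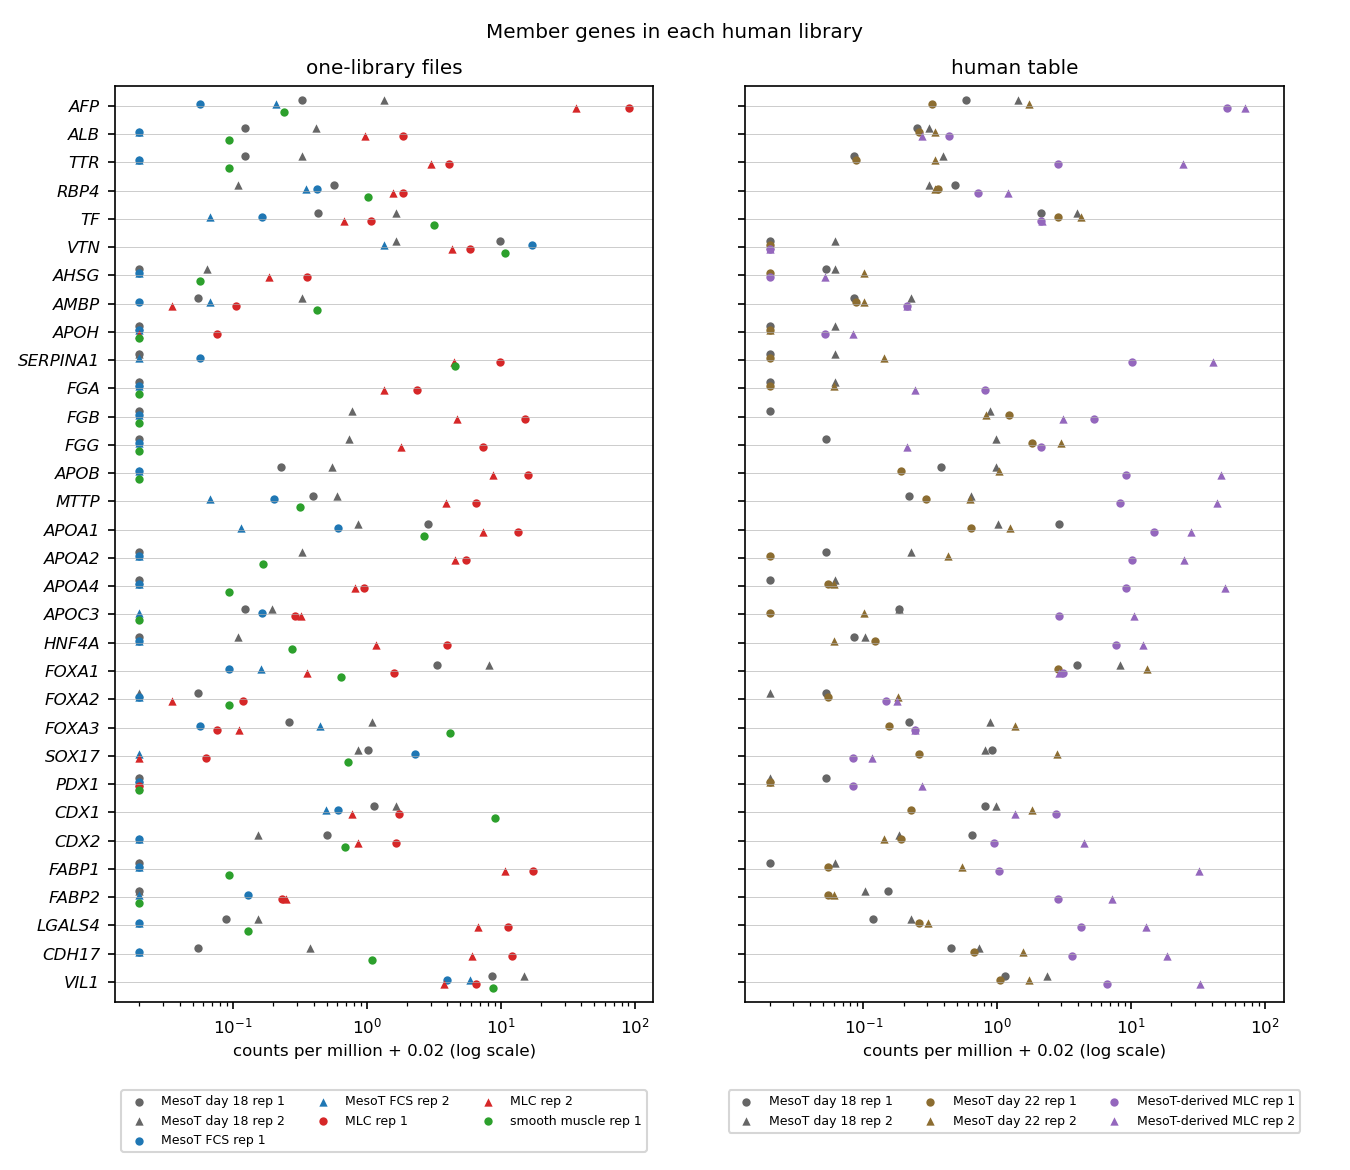
Each row is 1 of the 32 genes and each point 1 library; the horizontal axis is CPM plus 0.02 on a log scale, with the 7 one-library files on the left and the 6 libraries of the human table on the right. Both MLC points (red, left) are above both day 18 points for 21 genes, and both MesoT-derived MLC points (purple, right) are above the 4 MesoT points for 20, while FOXA1, FOXA3 and SOX17 are among those that are not.

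MesoT-derived MLC had higher transcripts of the lipoprotein and gut epithelium genes, of HNF4A and of 3 of the 10 serum carriers than the 4 MesoT libraries of the same table. Of the 24 members with counts enough for a test, 16 were higher and 0 lower in MesoT-derived MLC (edgeR, adjusted p under 0.05 over all 22316 genes), where 6.63% of all genes tested were higher and 3.32% lower. The count is a description and no support for the set, since the genes were chosen for a difference from the day 18 samples, which are part of the MesoT arm here. Of the 24, 10 met the count filter only through the MesoT-derived MLC libraries and so had to differ (SERPINA1, TTR, APOA2, APOA4, APOC3, HNF4A, CDX2, FABP1, FABP2 and LGALS4). All 10 are among the 16. Of the other 14, 6 were called higher: AFP, APOB, MTTP, APOA1, CDH17 and VIL1. Counted by level over all members, 20 of 32 were above every MesoT library in both MesoT-derived MLC libraries, where 11.4% of all genes were. Replicate 1 alone was above them for 22 members (17.7% of all genes) and replicate 2 alone for 21 (18.2%). One member, SOX17, was below every MesoT library (20.7% of all genes), and it was called lower by DESeq2 though not by edgeR (adjusted p = 0.0989) or voom. The 16 calls depend on which libraries enter. Without day 22 replicate 1 or without MesoT-derived MLC replicate 2, 0 of all genes passed in edgeR, with 21 members (19 of them higher) and 17 members (all higher) at an unadjusted p under 0.05. Against day 18 alone 6 members were called higher, against day 22 alone 9, and without day 22 replicate 2, 5.

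**Figure D2:**
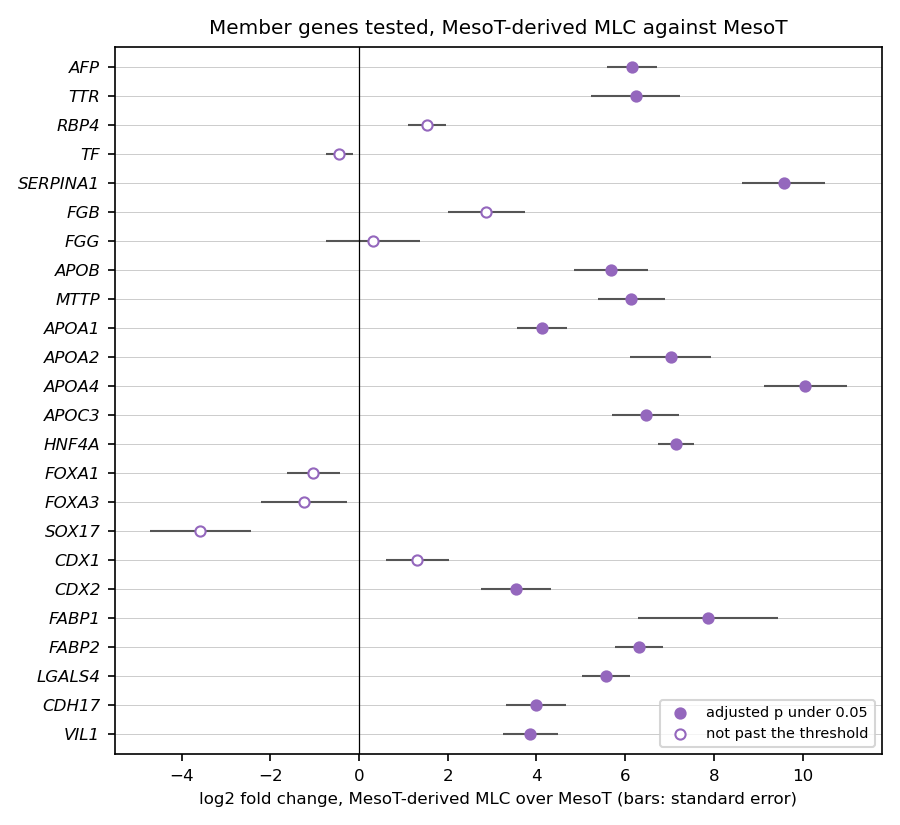
Points are the log2 fold change of MesoT-derived MLC over MesoT (mean of day 18 and day 22) for the 24 members tested, and bars are the standard error of the fit; filled points passed an adjusted p of 0.05. The 16 filled points lie at 3.53 (CDX2) or higher, and the open points are RBP4, TF, FGB, FGG, FOXA1, FOXA3, SOX17 and CDX1.

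Among the serum carriers and inhibitors, AFP, SERPINA1 and TTR were called higher. SERPINA1 and TTR met the count filter only through MesoT-derived MLC and so had to differ. AFP (ENSG00000081051), the fetal serum carrier, was at 0.559, 1.41, 0.307 and 1.70 CPM in MesoT at day 18 and day 22 (2 libraries each) and at 52.0 and 70.4 CPM in MesoT-derived MLC. The lower of the 2 MesoT-derived MLC libraries was above the highest MesoT library, with a mean ratio of 61.5 (log2 fold change 6.15 ± 0.57, edgeR adjusted p = 0.0122). SERPINA1 (ENSG00000197249), encoding the elastase inhibitor alpha-1 antitrypsin, went from 0, 0.0414, 0 and 0.122 CPM to 10.2 and 40.8 CPM, a ratio of 626 on a MesoT level of a few counts (log2 fold change 9.57 ± 0.94, edgeR adjusted p = 0.0122). TTR, a carrier of thyroid hormone and of retinol with RBP4, was at 0.0658, 0.373, 0.0683 and 0.324 CPM in MesoT and at 2.83 and 24.3 CPM in MesoT-derived MLC, where replicate 2 stood far above replicate 1 (log2 fold change 6.24 ± 1.00, edgeR adjusted p = 0.0242). RBP4, the retinol carrier, was at 0.461, 0.290, 0.342 and 0.324 CPM and then 0.700 and 1.18 CPM, above every MesoT library but not past the threshold (log2 fold change 1.53 ± 0.43, edgeR adjusted p = 0.0754). ALB, albumin, was at 0.230, 0.290, 0.239 and 0.324 CPM in MesoT and at 0.414 and 0.254 CPM in MesoT-derived MLC, so the groups overlapped, and its counts were too few for the test. TF, encoding transferrin, did not pass either (log2 fold change -0.44 ± 0.30, edgeR adjusted p = 0.359), at 2.10 and 2.13 CPM against 2.11, 3.94, 2.83 and 4.22. Of the others, AMBP, APOH and AHSG stayed at or below 0.207 CPM in each of the 6 libraries of the table and were not tested. VTN had 1 count in the whole table, although the same day 18 samples held 325 in the one-library files.

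The fibrinogen genes, whose 3 chains assemble into the clotting protein, were not called: FGB and FGG did not pass and FGA had too few counts for the test. FGB was at 0, 0.870, 1.20 and 0.811 CPM in MesoT and at 5.22 and 3.09 CPM in MesoT-derived MLC, above each MesoT library and with a ratio of 5.77, but it missed the threshold (log2 fold change 2.87 ± 0.86, edgeR adjusted p = 0.0853). FGG was at 0.0329, 0.953, 1.81 and 2.96 CPM and then at 2.10 and 0.191 CPM, so that MesoT-derived MLC replicate 2 lay below both day 22 libraries (log2 fold change 0.32 ± 1.07, edgeR adjusted p = 0.866). FGA had 2 counts in the 4 MesoT libraries against 32 in MesoT-derived MLC, a ratio of 27.6 (95% exact counting interval 7.04 to 238), and its levels were 0.795 and 0.223 CPM there.

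All 6 lipoprotein genes were called higher, where 6.63% of all genes tested were. APOA2, APOA4 and APOC3 met the count filter only through MesoT-derived MLC and so had to differ. APOB (ENSG00000084674), the structural protein of chylomicrons and of low-density lipoprotein, was at 0.362, 0.953, 0.171 and 1.01 CPM in MesoT and at 9.07 and 46.5 CPM in MesoT-derived MLC, a ratio of 44.5 (log2 fold change 5.69 ± 0.83, edgeR adjusted p = 0.0215). MTTP, which loads lipid onto APOB, went from 0.197, 0.621, 0.273 and 0.608 CPM to 8.21 and 44.1 CPM, a ratio of 61.5 (log2 fold change 6.14 ± 0.76, edgeR adjusted p = 0.0163). For both genes the groups did not overlap, and replicate 2 was more than 5 times replicate 1. APOA4, an apolipoprotein of the small intestine, had 3 counts in all of MesoT (0, 0.0414, 0.0342 and 0.0405 CPM) and 9.19 and 50.4 CPM in MesoT-derived MLC, a ratio of 1077 (counting interval 368 to 5225). It passed with an edgeR adjusted p of 0.0122. APOA1 and APOA2 belong to high-density lipoprotein. APOA1 was at 2.86, 0.994, 0.615 and 1.22 CPM in MesoT and 14.8 and 27.9 CPM in MesoT-derived MLC (log2 fold change 4.12 ± 0.56, edgeR adjusted p = 0.0192). APOA2 was at 0.0329, 0.207, 0 and 0.405 CPM and 10.1 and 24.8 CPM (log2 fold change 7.02 ± 0.92, edgeR adjusted p = 0.0182). APOC3, an inhibitor of lipoprotein clearance, was at 0.165, 0.166, 0 and 0.0811 CPM and 2.86 and 10.5 CPM (log2 fold change 6.46 ± 0.75, edgeR adjusted p = 0.0149). In each of these 3 the lower MesoT-derived MLC library stood above the highest MesoT library.

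Of the 8 transcription factors, HNF4A and CDX2 were called higher, and the endoderm factors of the FOXA and SOX17 group were not. HNF4A and CDX2 met the count filter only through MesoT-derived MLC and so had to differ. HNF4A (ENSG00000101076), a nuclear receptor of liver and gut, was at 0.0658, 0.0829, 0.102 and 0.0405 CPM in MesoT and 7.70 and 12.2 CPM in MesoT-derived MLC, a ratio of 136 (log2 fold change 7.14 ± 0.40, edgeR adjusted p = 0.00721). This was the lowest adjusted p among the members, but no ranking is read from it, since the filter required a difference. CDX2, an intestinal homeobox factor, was at 0.625, 0.166, 0.171 and 0.122 CPM and 0.923 and 4.39 CPM, a ratio of 9.81 (log2 fold change 3.53 ± 0.79, edgeR adjusted p = 0.0460). The CDX2 call held in DESeq2 but ended with no filter (edgeR adjusted p = 0.0523), with the replicate block (0.0667), with voom (0.0820), against either day alone and in 5 of the 6 fits that left out a library. Its relative CDX1 did not pass, at 2.74 and 1.34 CPM against 0.790, 0.953, 0.205 and 1.78 (log2 fold change 1.31 ± 0.71, edgeR adjusted p = 0.263). FOXA1, which opens chromatin in endoderm, was already present in MesoT at 3.95, 8.20, 2.83 and 13.1 CPM and stood at 3.05 and 2.86 CPM in MesoT-derived MLC (log2 fold change -1.03 ± 0.60, edgeR adjusted p = 0.293). FOXA3 was at 0.197, 0.870, 0.137 and 1.34 CPM and 0.223 and 0.223 CPM (log2 fold change -1.24 ± 0.97, edgeR adjusted p = 0.425), again with overlapping groups. SOX17, a factor of definitive and primitive endoderm, was at 0.888, 0.787, 0.239 and 2.76 CPM in MesoT and at 0.0636 and 0.0954 CPM in MesoT-derived MLC, below every MesoT library. FOXA2 stayed at or below 0.162 CPM in these 6 libraries and was not tested. PDX1, a factor of pancreas and duodenum, had 1 count in MesoT and 10 in MesoT-derived MLC, a ratio of 17.3 (counting interval 2.45 to 749).

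Each of the 5 gut epithelium genes was called higher, where 6.63% of all genes tested were. FABP1, FABP2 and LGALS4 met the count filter only through MesoT-derived MLC and so had to differ. FABP1 (ENSG00000163586), which binds fatty acids in liver and gut, was at 0, 0.0414, 0.0342 and 0.527 CPM in MesoT and 1.02 and 31.9 CPM in MesoT-derived MLC (log2 fold change 7.87 ± 1.57, edgeR adjusted p = 0.0371). Replicate 1 was within about 2-fold of the highest MesoT library, so the mean ratio of 109 rests on replicate 2. The FABP1 call ended with voom (adjusted p = 0.147), against either day alone and in 5 of the 6 fits that left out a library. FABP2, its intestinal relative, was at 0.132, 0.0829, 0.0342 and 0.0405 CPM and 2.80 and 7.13 CPM, a ratio of 68.6 (log2 fold change 6.32 ± 0.55, edgeR adjusted p = 0.0111). LGALS4, a galectin of the gut lining, was at 0.0987, 0.207, 0.239 and 0.284 CPM and 4.20 and 12.9 CPM, a ratio of 41.3 (log2 fold change 5.57 ± 0.53, edgeR adjusted p = 0.0122). In both genes the MesoT-derived MLC libraries were clear of every MesoT library. CDH17, the liver-intestine cadherin, was at 0.428, 0.704, 0.649 and 1.54 CPM and 3.63 and 18.5 CPM, a ratio of 13.3 (log2 fold change 3.99 ± 0.67, edgeR adjusted p = 0.0267). VIL1, which bundles the actin of microvilli, was at 1.12, 2.32, 1.02 and 1.70 CPM and 6.62 and 32.6 CPM, a ratio of 12.7 (log2 fold change 3.86 ± 0.62, edgeR adjusted p = 0.0244). Neither of them overlapped with MesoT, although both are among the genes that the sets counted differently at day 18.

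The 2 MesoT-derived MLC libraries differed widely in these genes. The ratio of replicate 2 to replicate 1 could be formed for 28 members, and its 95% exact counting interval was above 1 for 16, below 1 for 4 and spanned 1 for 8, while over all genes 20.7% were above and 23.2% below. The median over the members was 2.18, where over all genes it was 1.00 with a 5th to 95th percentile of 0.538 to 1.73. FABP1 had the highest ratio, 31.3 (counting interval 22.1 to 46.1), from 32 and 1003 counts, and TTR followed at 8.60 (6.89 to 10.8). The 4 genes with the opposite order were FGG, at 0.0909 (0.0322 to 0.209) from 66 and 6 counts, FGA at 0.280, FGB at 0.591 and CDX1 at 0.488. Summed by role, the lipoprotein genes had 54.1 and 204 CPM in replicates 1 and 2, the gut epithelium genes 18.3 and 103 CPM, and the fibrinogen genes 8.11 and 3.50 CPM. Lipoprotein and gut transcripts thus stood high in replicate 2 and fibrinogen transcripts in replicate 1. In the same pair of libraries the mesothelial list summed to 1849 and 2906 CPM with 0 genes at 0. A list of 12 general epithelial genes summed to 3772 and 3288 CPM, of which KRT8 and KRT18 make up most, with 0 genes at 0. Within it GRHL2 was at 17.1 and 2.54 CPM, ESRP1 at 24.8 and 4.68, ST14 at 38.3 and 8.18, CLDN6 at 82.5 and 20.7 and CLDN7 at 31.6 and 10.6, all lower in replicate 2, as was every other gene of the list except KRT18. The part of these genes in the difference was not tested.

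In direct-route MLC the replicates differed in one direction. Of 29 members with a ratio, 21 had a counting interval below 1, 0 above it and 8 across it, with a median of 0.548. Over all genes 21.3% were above and 23.9% below, the median was 0.993 and the 5th to 95th percentile 0.633 to 1.59. MLC replicate 1 therefore held more of these transcripts than replicate 2, with AFP at 6401 and 2401 counts, HNF4A at 279 and 75 and FGG at 520 and 117. These intervals cover counting error only.

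**Figure D3:**
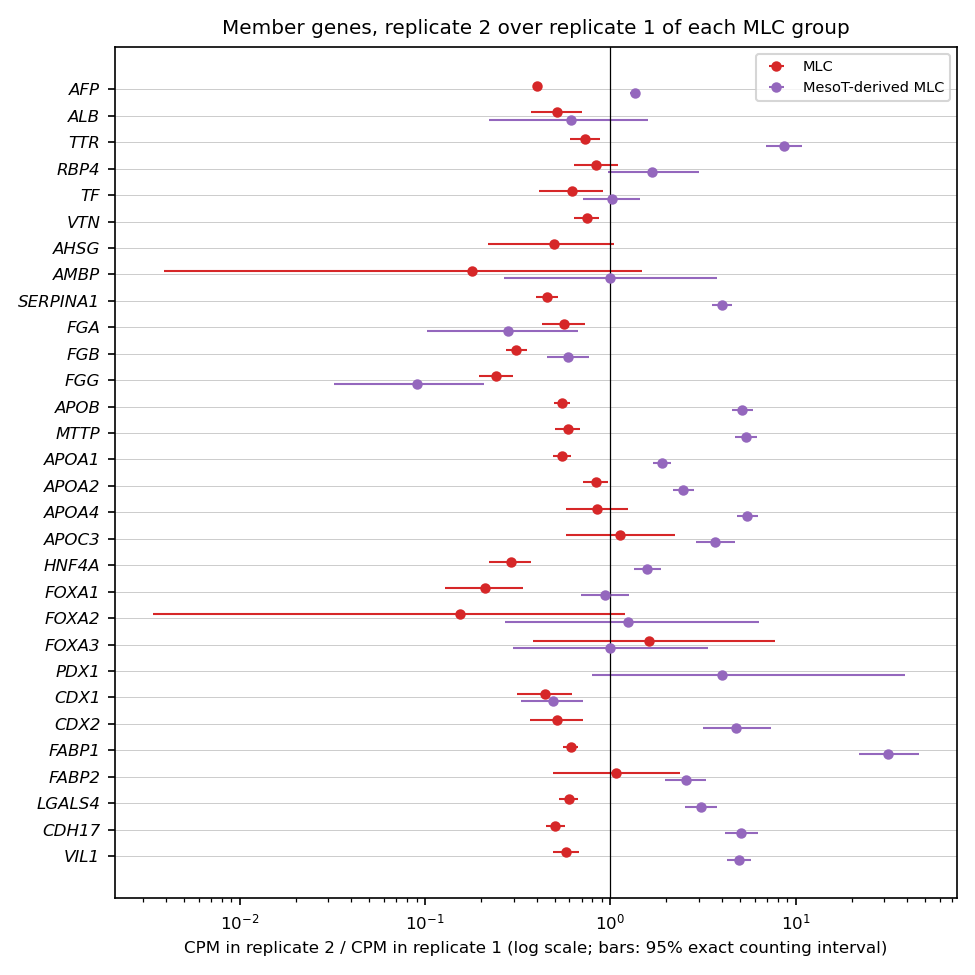
Points are the CPM of replicate 2 divided by that of replicate 1 within MLC (red) and within MesoT-derived MLC (purple), on a log axis, and bars are 95% exact counting intervals. Most red points lie left of 1, and the purple points for APOB, MTTP, APOA4, TTR, CDX2, FABP1, CDH17 and VIL1 lie right of 1 while FGA, FGB and FGG lie left of it.

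The direct route, set against MesoT at day 18 in the one-library files, is the contrast the genes came from, and its values are a description. In both MLC libraries 21 of the 32 members were above both day 18 libraries and 4 were below (FOXA1, FOXA3, SOX17 and VIL1), while 20.7% and 31.9% of all genes did the same. The median log2 ratio was 2.49 over 31 members and -0.25 over all genes. AFP was at 90.6 and 36.5 CPM against 0.311 and 1.33 CPM at day 18. FABP1 was at 17.4 and 10.7 CPM with 0 counts at day 18, at least 241-fold higher when those libraries are set at 3 counts together. APOB was at 16.0 and 8.80 CPM against 0.207 and 0.532, and FGB at 15.2 and 4.73 CPM against 0 and 0.754. For these 4 genes the MLC libraries were clear of day 18. In the same libraries APOA1 was at 13.4 and 7.32 CPM against 2.83 and 0.843, CDH17 at 12.2 and 6.13 CPM against 0.0345 and 0.355 and LGALS4 at 11.3 and 6.74 CPM against 0.0690 and 0.133. SERPINA1 was at 9.89 and 4.49 CPM and had 0 counts at day 18, at least 123-fold higher. HNF4A was at 3.95 and 1.14 CPM against 0 and 0.0887, a ratio of 66.9 (counting interval 18.4 to 554). ALB was present but low at 1.84 and 0.944 CPM against 0.104 and 0.399, again above both day 18 libraries. FOXA1, in contrast, was at 1.58 and 0.335 CPM against 3.35 and 8.16, and SOX17 at 0.0424 and 0 CPM against 1.00 and 0.843. The same MLC libraries were thus above day 18 in HNF4A and below it in FOXA1 and SOX17. The carrier TTR was at 4.10 and 2.98 CPM against 0.104 and 0.310, and RBP4 at 1.84 and 1.54 CPM against 0.552 and 0.0887, both clear of day 18. FGG was at 7.36 and 1.78 CPM against 0 and 0.710, and MTTP at 6.55 and 3.87 CPM against 0.380 and 0.577, clear as well. CDX2 was at 1.63 and 0.837 CPM against 0.483 and 0.133, whereas CDX1, at 1.71 and 0.761 CPM against 1.10 and 1.64, overlapped. VTN, a matrix and plasma adhesion protein, was at 5.83 and 4.34 CPM between the day 18 libraries at 9.94 and 1.64. TF was at 1.06 and 0.654 CPM between 0.414 and 1.64, so these also overlapped. VIL1 was at 6.47 and 3.73 CPM against 8.66 and 14.8, and FOXA3 at 0.0566 and 0.0913 CPM against 0.242 and 1.06. Among further genes of the same tissues, both MLC libraries were above day 18 for 17 of 30 gut epithelium genes (8 below). The highest mean levels there were those of ISX, KRT20, MUC13 and GPA33. The same MLC libraries were above day 18 for 11 of 36 genes listed as secretory (5 below), with APOE, C5, APOC1 and AGT. Both were above it for 8 of 19 hepatocyte metabolic genes (5 below), with CYP2E1 and TM4SF4, and for 6 of 21 endoderm and liver factors (7 below), with GATA4, GATA6, NR1H4 and CEBPA. The shares of all genes above, 20.7% and 31.9%, apply here too. PDX1 had 0 counts in all 7 of the one-library files. Under each alternative tried 21 to 24 members were higher. The shares of all genes given here are for the full set of libraries, so nothing more is read from this range.

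The routes were each counted in a set of their own. Both are set against the same day 18 samples, so their values are given side by side with no test. Against day 18 in the table, 22 members were higher in both MesoT-derived MLC libraries (15.9% of all genes) and 3 lower (27.7%), and the direct route had the 21 and 4 given above. Both MesoT-derived MLC libraries were above both MLC libraries for 16 members (42.7% of all genes), both MLC libraries were higher for 5 (25.0% of all genes), and 11 overlapped. The 16 and the 5 of 32 members are near or below these shares of all genes, so nothing about the members is read from them. The 16 held 5 of the 6 lipoprotein genes, with APOA4 at 0.934 and 0.791 CPM in MLC and 9.19 and 50.4 CPM in MesoT-derived MLC, APOC3 at 0.269 and 0.304 and 2.86 and 10.5 CPM, and APOA2 at 5.48 and 4.57 and 10.1 and 24.8 CPM. FABP2 was at 0.212 and 0.228 CPM in MLC and 2.80 and 7.13 CPM in MesoT-derived MLC. HNF4A was at 3.95 and 1.14 and 7.70 and 12.2 CPM. Higher in MLC were FGA (2.36 and 1.32 against 0.795 and 0.223 CPM), ALB, RBP4, AHSG and VTN, of which VTN cannot be compared because the table counted it at 0 where the one-library files did not. TF and VIL1, among the 16, were also counted differently in the same day 18 samples, and FABP2 had 0 and 6 counts there. Count ratios of 2 genes within a library carry the same reservation. FGB had 16.3 and 5.98 counts per APOA4 count in MLC but 0.567 and 0.0613 in MesoT-derived MLC. FABP1 had 82.2 and 46.7 counts per FABP2 count in MLC and 0.364 and 4.48 in MesoT-derived MLC. AFP overlapped between the routes. Without MLC replicate 2, 8 members were higher in MLC, and without MesoT-derived MLC replicate 2, 9. The shares of all genes given above do not apply to these smaller sets of libraries, so nothing about the members is read from these counts.

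**Figure D4:**
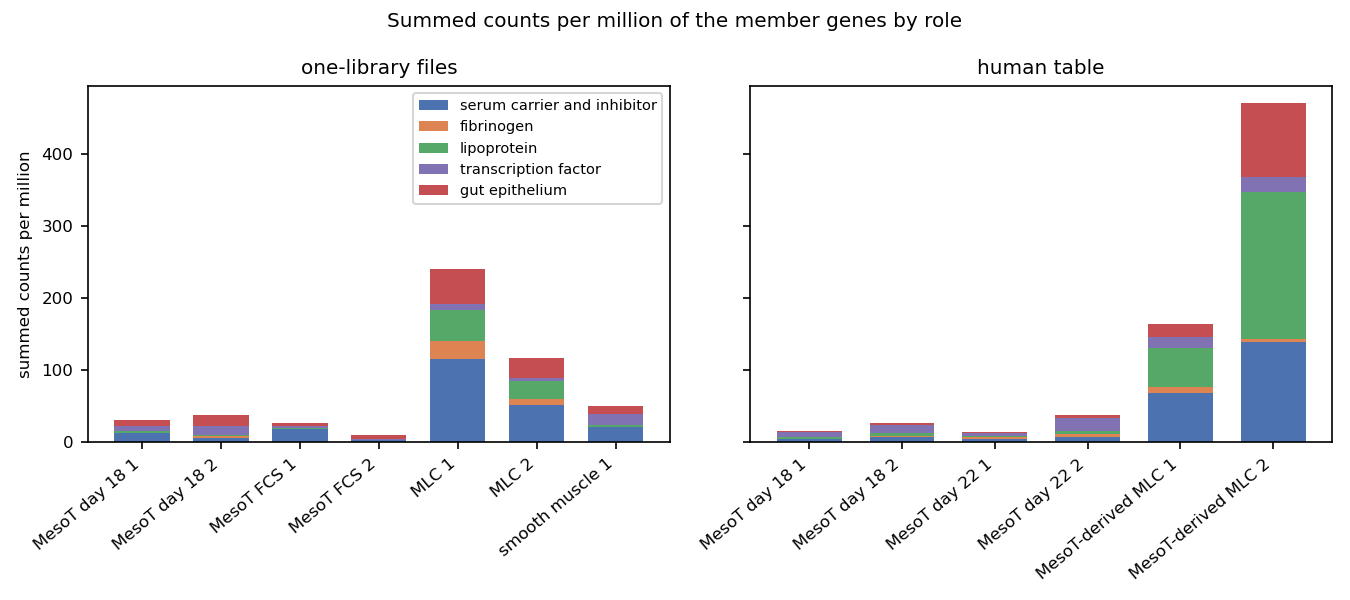
Bars are the summed CPM of the member genes in each library, split by role (10 serum carrier and inhibitor genes, 3 fibrinogen, 6 lipoprotein, 8 transcription factor and 5 gut epithelium genes). The MLC bars reach 239.9 and 116 CPM with visible fibrinogen parts, and the MesoT-derived MLC bars reach 164 and 472 CPM with the lipoprotein and gut parts widest in replicate 2.

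No difference in these genes was detected in MesoT between day 18 and day 22. By edgeR 0 members and 0 of all genes passed (0%), as by DESeq2 and voom, and at an unadjusted p under 0.05 edgeR had 0 members and 171 genes. The members summed to between 13.7 and 37.7 CPM over the 4 MesoT libraries of the table, with the lowest and the highest sum both at day 22. Replicate 2 had the higher sum on each day.

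In MesoT FCS the members summed to 25.7 and 8.98 CPM, against 29.9 and 36.9 CPM at day 18. Of 26 tested, APOB and FOXA1 were called lower and 0 higher (edgeR), where 14.4% of 23049 genes were lower and 13.0% higher. Among the 26, FGA, APOA4 and FABP1 had 0 counts in both groups. DESeq2 called 7 members lower, edgeR with no filter 5 and voom 1. DESeq2 and voom called 0 members higher as well, and the 7 members at an unadjusted p under 0.05 in edgeR were all lower. FOXA1 went from 3.35 and 8.16 CPM at day 18 to 0.0730 and 0.142 CPM (log2 fold change -5.19 ± 1.03, edgeR adjusted p = 0.0183). APOB had 0 counts in both serum libraries against 18 at day 18, at least 5.98-fold lower (edgeR adjusted p = 0.0342). Neither gene passed without either serum replicate, and APOB also missed the threshold by voom (adjusted p = 0.113). Of the 32 members, 18 and 21 had 0 counts in the 2 serum libraries, where day 18 had 12 and 8 such genes. The share of all genes at 0 is not given here, so nothing about the members is read from these numbers. In these libraries 10 of the 12 general epithelial genes were called lower, led by ST14, GRHL2, CDH1 and ESRP1. Members that stayed in serum culture included VIL1 at 3.98 and 5.86 CPM, VTN at 17.1 and 1.32 CPM and, in replicate 1 alone, SOX17 at 2.26 and 0 CPM. At lower levels RBP4 had a mean of 0.366 CPM, against 0.320 at day 18, and CDX1 0.529 CPM, against 1.37. AFP was at 0.0365 and 0.189 CPM.

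In the library labelled smooth muscle the members summed to 49.2 CPM, against 29.9 and 36.9 CPM at day 18. There is 1 such library, so the p-values below rest on the spread of the other groups. By edgeR SERPINA1 and CDX1 were called higher. SERPINA1 had 124 counts (4.57 CPM) against 0 at day 18, at least 78.5-fold higher (edgeR adjusted p = 0.0212). CDX1 was at 9.11 CPM against 1.10 and 1.64 (log2 fold change 3.13 ± 0.57, edgeR adjusted p = 0.0331). CDX1 missed the threshold without day 18 replicate 2 (edgeR adjusted p = 0.0555). FOXA3 at 4.17 CPM and TF at 3.17 CPM were above both day 18 libraries (0.242 and 1.06 and 0.414 and 1.64 CPM) but did not pass. APOB and the 3 fibrinogen genes had 0 counts, and AFP was at 0.221 CPM. With 2 of 26 members higher and 0 lower, against 5.08% and 3.58% of all genes, DESeq2 and voom also called 0 lower, and edgeR had APOB and FOXA1 lower at an unadjusted p under 0.05. Stratified epithelial genes stood high in this library, with KRT5 at 788 CPM, KRT6A at 672 CPM, KRT14 at 235 CPM and TP63 at 74.5 CPM, all 4 called higher. Of 6 smooth muscle genes 0 were called in it by edgeR, DESeq2 or voom, and 0 had an unadjusted p under 0.05 in edgeR. Their part in the SERPINA1 and CDX1 values was not tested.

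Other genes of the same tissues were taken from lists of liver, gut and endoderm genes. In MesoT-derived MLC against MesoT, 8 of 30 further gut epithelium genes (18 tested) were higher and 1 lower, where 6.63% of all genes tested were higher and 3.32% lower. MUC13, a membrane mucin, had 1 count in MesoT and 4405 in MesoT-derived MLC, a ratio of 7600 (counting interval 1363 to 300254). MYO1A, the microvillus myosin, had 3 and 164, a ratio of 94.3 (31.7 to 462). KRT20, a keratin of differentiated gut cells, was 65.2-fold higher and EPS8L3 74.5-fold. The other 4, named after their values were seen, were the brush border sucrase-isomaltase gene SI (0 and 93 counts, at least 53.5-fold), MEP1A (92.2-fold), TM4SF20 (20.0-fold) and CDHR5 (10.9-fold). The gene that was lower was LGR5, a marker of intestinal stem cells (7.46-fold). MUC13, MYO1A, KRT20, EPS8L3, TM4SF20, MEP1A and SI had at most 10 counts each over the 4 MesoT libraries. They met the count filter only through MesoT-derived MLC and so had to differ. The count of 8 is therefore a description and no support for the list. CDHR5 had 109 counts in MesoT. Of 36 further genes listed as hepatocyte and yolk sac secretory (20 tested) 3 were higher and 0 lower. These 3 were AGT (5.72-fold), AMN (3.37-fold) and AFM (38.8-fold, counting interval 10.1 to 330). The sets counted AMN differently, with 1185 counts at day 18 in the one-library files but 96 over the 4 MesoT libraries of the table. Of 19 hepatocyte metabolic genes with an identifier (11 tested) 2 were higher and 0 lower, ASS1 (4.81-fold) and TM4SF4 (31.9-fold, interval 8.23 to 273). AFM and TM4SF4 had 2 counts each in MesoT, so they too met the filter only through MesoT-derived MLC. Of 21 further endoderm and liver factors (17 tested) 0 were higher and 2 lower, CXCR4 (33.7-fold) and PROX1 (5.07-fold). The counts of 0 are by edgeR, where an unadjusted p under 0.05 was met by 2 lower genes in the secretory list, 2 lower in the metabolic list and 1 higher among the factors. DESeq2 called 0, 3 and 1 such genes and voom 0 in each list. The median log2 fold change over tested genes was 3.12 for the gut list, 0.31 for the secretory list, -0.46 for the metabolic list and -0.41 for the factors. In the mesothelial list 5 of 10 were higher and 0 lower, led by LRRN4 (8.62-fold), WT1 (4.60-fold), UPK3B (6.99-fold) and MSLN (13.7-fold), and DESeq2 called 1 lower. Among 12 general epithelial genes edgeR called 0 in either direction, with 3 lower at an unadjusted p under 0.05, where DESeq2 called 3 and voom 2 lower. MesoT, though named the mesenchymal form, held these transcripts, and the list summed there to 4143, 3183, 3267 and 4092 CPM. CDH1 was at 154, 186, 180 and 242 CPM in MesoT and at 199 and 179 CPM in MesoT-derived MLC. Of 6 blood markers, only 2 were tested by edgeR, and 0 were called by edgeR (also at an unadjusted p), DESeq2 or voom. The 6 summed to 7.79 and 2.48 CPM in MesoT-derived MLC, mostly from CD34 (7.41 and 1.78 CPM). Of 8 heart muscle genes (7 tested) edgeR called TNNT2 higher, where DESeq2 called 3 higher. The part of these other cell types in the members' values was not tested.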

How the data were processed

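Counts per Ensembl gene ID were deposited for 11 human samples, as whole numbers with different totals per library. The authors' processing is known only from the submitters' processing notes, which name TopHat2 2.0.13, Bowtie2 2.2.9, Subread 1.4.2, featureCounts and the build hg19 with no roles. No source used here gives the strand setting or annotation release, so reads of a member and of an overlapping or antisense gene cannot be told apart. Per the labels' protocols, libraries were poly(A) selected and sequenced at more than 1 facility and read length, not tied to libraries. Of 18 samples, 4 mouse and 3 ChIP samples were not analysed here.

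The 7 one-library files (63677 IDs) and the table of 6 libraries (56299 IDs, 53243 in both) were handled apart. In each, edgeR 4.0.16 (R 4.3.3; TMM, filterByExpr with a minimum count of 10, quasi-likelihood F test) was fitted to all groups with 3 residual degrees of freedom, and p-values were adjusted by Benjamini-Hochberg over all genes tested. A call is an adjusted p under 0.05. The standard error is the fold change divided by the square root of F. limma 3.58.1 (voom), DESeq2 1.42.0, DESeq2 size factors, no filter, a replicate block and leaving out libraries were alternatives. The fit was tested on counts simulated with the same dispersion for every gene. That setting does not cover genes whose replicates differ as widely as some members do. CPM are counts per library total. Where a group had 0 counts, ratios are bounds at 3 counts over the group. With 1 to 3 counts they carry a 95% exact counting interval, which covers counting error only.

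Members and the 10 lists (154 genes, 152 matched to an ID) were chosen with earlier results of these data known. All 32 members are accounted for, and the 24 with at least 1 CPM in both libraries of a group (or in smooth muscle) are given by library. From each list up to 4 genes are named, by smallest p or, with no test, by mean CPM; others are marked. Tables and figures used Python 3.11.15, pandas 2.3.3, numpy 2.4.6, scipy 1.17.1 and matplotlib 3.10.9.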

Additional observations from a re-analysis of the deposited data

Results flagged for a closer look

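Among the 4 MesoT libraries of the table, 3 of 27 members tested had a library far from the others by Dixon's test, which chance alone gives in about 1 in 20 groups. AMBP, encoding the bikunin precursor, was at 0.207 CPM in day 18 replicate 2, with the next library at 0.0811 CPM, which is 5 counts against 2. CDX2 was at 0.625 CPM in day 18 replicate 1, with the next at 0.171 CPM. FABP1 was at 0.527 CPM in day 22 replicate 2, with the next at 0.0414 CPM, and that library is the highest MesoT level against which FABP1 in MesoT-derived MLC was set.

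A pair of members was flagged for opposite directions from day 18 in the 2 routes, a difference that was not tested. AHSG, encoding the serum glycoprotein fetuin-A, was above both day 18 libraries in MLC. In MesoT-derived MLC it had 0 and 1 counts against 1 and 1 at day 18 in the same set. The log2 ratio of -1.22 rests on these counts, which are too few to give a direction. VIL1 was below both day 18 libraries in MLC, and in MesoT-derived MLC it was above them, with a log2 ratio of 3.51. The day 18 samples held 585 counts of VIL1 in the one-library files and 90 in the table.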

How the results depend on the processing

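For MesoT-derived MLC against MesoT, 2219 genes were called, but 4325 by DESeq2, 380 against day 18 alone and 612 against day 22 alone. Leaving out 1 library gave 0 (without day 22 replicate 1 or MesoT-derived MLC replicate 2) to 2995, with 182 without day 22 replicate 2. Members called higher (16) were 6 against day 18 alone, 9 against day 22 alone and 0 to 16 with 1 library left out, and DESeq2 called 1 lower. For MesoT FCS, 2 members were lower, but 5 with no filter, 7 by DESeq2, 1 by voom, 1 with the replicate block, and 0 to 5 with 1 library left out, where all genes called ranged from 2783 to 7845 around 6301. For the library labelled smooth muscle, 1998 genes were called, but 4614 by DESeq2, 527 with the replicate block and 2339 to 4292 without a day 18 replicate, and members higher (2) were 1 with the block and 1 to 3 with a day 18 replicate left out. Members higher in MLC than in MesoT-derived MLC (5) were 5 to 9 with 1 library left out, counts from which nothing about the members is read. Fewer samples enter the fits with libraries left out; otherwise the cause was not tested. In all other settings counts stayed within 1.5 times, and no member called changed direction.

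The labels tie same-numbered libraries by number alone. Deviations from group means correlated at 0.557 between day 18 and day 22 (2 pairs, a hint from the data and not the design), at -0.00768 and -0.0636 between these and MesoT-derived MLC, and at 0.0107 to 0.0730 in the one-library files. With the block 2800 genes and 15 members were called higher or lower in MesoT-derived MLC. Too few counts for a test in the table were found for 8 members, ALB and FGA among them.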
